A study of Homo sapiens with 2 samples.

Results

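The messages of 10 immediate early transcription regulators, the AP-1 genes FOS, FOSB, FOSL1, FOSL2, JUN, JUNB, JUND and ATF3 together with EGR1 and IER2, were compared between cytarabine-resistant and parental THP-1 cells. They were taken by gene symbol from a table of 30856 gene rows, and each symbol matched 1 row. THP-1 is an established human line of monocytic leukaemia with a KMT2A fusion gene. The parental group was 1 library of untreated cells, and the resistant group was 1 library of cells that had been exposed to Ara-C (cytarabine, a nucleoside analogue) at concentrations raised from 5 nM to 10 µM until they doubled as fast as untreated cells. Both groups were grown in the same medium with serum. The labels do not say whether the resistant cells were a clone or a pool, or whether drug was present at harvest. Each comparison below is therefore between 2 libraries, with no replicate check and no p-value, and the intervals cover counting error only.

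AP-1 is a dimer of basic leucine zipper proteins. A FOS family protein (FOS, FOSB, FOSL1, FOSL2) needs a JUN family partner (JUN, JUNB, JUND) to bind DNA well, whereas JUN proteins can also pair with each other or with ATF proteins such as ATF3. EGR1 is a zinc finger factor and IER2 is a short nuclear protein, and both are immediate early genes: growth factors, serum and stress switch them on within minutes, without new protein synthesis, through kinases that act on SRF, ELK and CREB proteins already bound at their promoters. In monocytic cells, FOS, JUN and EGR1 are known for their induction when the cells are driven towards macrophages.

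The promoters of FOS, JUN, JUND, EGR1 and FOSL2 are shown to place matches to known control elements close to the start. FOS, JUN, JUND and EGR1 had the lowest ratios of resistant to parental cells among the members that reached 1 FPKM. FOSL2 was taken as a member that was not lower. Sequences are those of RefSeq (GRCh38.p14), read 5′ to 3′ on the strand of the gene. Capitals mark matches on either strand to the cyclic AMP response element (CRE) TGACGTCA, its core TGACGT, the AP-1 sites TGANTCA and TGACATCA, the EGR site GCGNGGGCG, the CArG box bound by SRF and the TATA box TATAAA. A full CRE also counts as matches to the core. For FOS, the stretch ends before the first start that GENCODE annotates. For JUN and FOSL2, few or no bases remained before the first annotated start, and 30 bases around the match are shown.
FOS (chr14:75278578-75278773, plus strand): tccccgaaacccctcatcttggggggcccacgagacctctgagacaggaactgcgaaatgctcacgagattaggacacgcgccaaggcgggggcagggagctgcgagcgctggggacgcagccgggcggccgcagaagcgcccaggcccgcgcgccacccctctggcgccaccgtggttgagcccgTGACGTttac
EGR1 (chr5:138465229-138465478, plus strand): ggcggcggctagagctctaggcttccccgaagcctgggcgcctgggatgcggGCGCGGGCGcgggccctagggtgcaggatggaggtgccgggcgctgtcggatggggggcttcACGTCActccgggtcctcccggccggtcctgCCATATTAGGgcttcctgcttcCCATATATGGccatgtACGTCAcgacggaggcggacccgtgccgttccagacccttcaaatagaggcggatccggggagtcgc
JUND (chr19:18281623-18281872, minus strand): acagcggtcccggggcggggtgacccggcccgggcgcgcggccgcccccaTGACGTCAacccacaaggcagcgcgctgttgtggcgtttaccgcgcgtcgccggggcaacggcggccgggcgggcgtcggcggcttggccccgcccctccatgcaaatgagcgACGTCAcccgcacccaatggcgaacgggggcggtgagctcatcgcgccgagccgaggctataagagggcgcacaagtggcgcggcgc
JUN (chr1:58784096-58784125, minus strand): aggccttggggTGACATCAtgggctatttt
FOSL2 (chr2:28392780-28392809, plus strand): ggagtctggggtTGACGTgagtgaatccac

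RefSeq promoters were at hand for 9 of the 10 members (FOS, FOSB, FOSL2, JUN, JUNB, JUND, ATF3, EGR1 and IER2), and the 250 bases before each start were searched. The CRE core lay in the windows of 5 of these 9 genes, FOS, FOSB, FOSL2, JUND and EGR1, against 7.10% of all 35114 windows of that length and 9.75% of the 12388 windows of expressed genes. Of the other elements, the shares of expressed-gene windows were 2.56% for the full CRE, 1.05% for the CArG box, 13.1% for the EGR site, 1.21% for TGACATCA, 3.92% for TGANTCA and 5.63% for TATAAA. In FOS the core began 64 bases before the start, in FOSB 60 and in FOSL2 66. These 3 genes of the FOS family thus share the element at nearly the same distance from the RefSeq start. In the deposited data the FOSL2 row begins at 28392448, upstream of the window, so its core lies inside that row. GENCODE has a FOS start closer to the core, so the likeness holds for RefSeq starts only. The part of the element in the ratios of these 3 genes was not tested. JUND had a full CRE that began 200 bases before the start (1.65% of all windows hold one) and a further core 87 bases before it. EGR1 was the only member with the CArG box in its window (1.16% of all windows), with copies that began 105 and 83 bases before the start, and it also held an EGR site (8.41% of all windows). JUN and ATF3 held TGACATCA (2.38% of all windows), in JUN 67 bases before the start. TGANTCA was in none of the 9 members' windows, against 6.57% of all windows, and TATAAA was in those of FOS, FOSB, JUNB and ATF3 (10.7% of all windows). TATAAA began 33 bases before the start in FOS, 30 in FOSB and 31 in JUNB. ATF3 alone had 2 windows, and its match began 230 bases before the start of the second. These are letter matches in a fixed window, and binding was not measured. Bases further than 250 from the start were not searched. A member without a match here, such as FOS for the CArG box, may hold one there.

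FOS was the lowest of the 10 members in resistant relative to parental cells. It was 3.23-fold lower in the resistant library (95% counting interval 3.02 to 3.46), and the 3 JUN genes and EGR1 were lower by smaller folds, whereas FOSL1 and FOSL2 were slightly higher. The scarce FOSB was also lower, with an interval wide enough to hold the fold of FOS. Each fold divides the counts of a gene, taken as a share of its library, between the libraries, and has an exact interval. In bulk RNA, fewer cells with a message and less of it per cell cannot be told apart. Of the 10 genes, 8 reached 1 FPKM (fragments per kilobase of transcript, scaled to library size), and each of these did so in both libraries; FOSB and ATF3 stayed below it in both. On the log2(FPKM + 1) scale, 1 of the 8 was at least 2-fold lower in resistant cells, where 1.23% of the 11388 expressed genes were, and 0 of 8 were at least 2-fold higher, against a background of 0.632%. At 1.5-fold, 3 of 8 were lower (FOS, JUN and JUND) against 4.77% of expressed genes, and 0 of 8 were higher against 2.93%. The median log2 ratio of the 8 genes was -0.40, and that of all expressed genes was -0.02. Counting error alone is small at this depth: the interval lay wholly below 1 for 39.1% and wholly above 1 for 33.7% of expressed genes, so an interval that leaves out 1 is common. Among the 8 members, 6 had such an interval below 1 and 2 above.

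**Figure D1:**
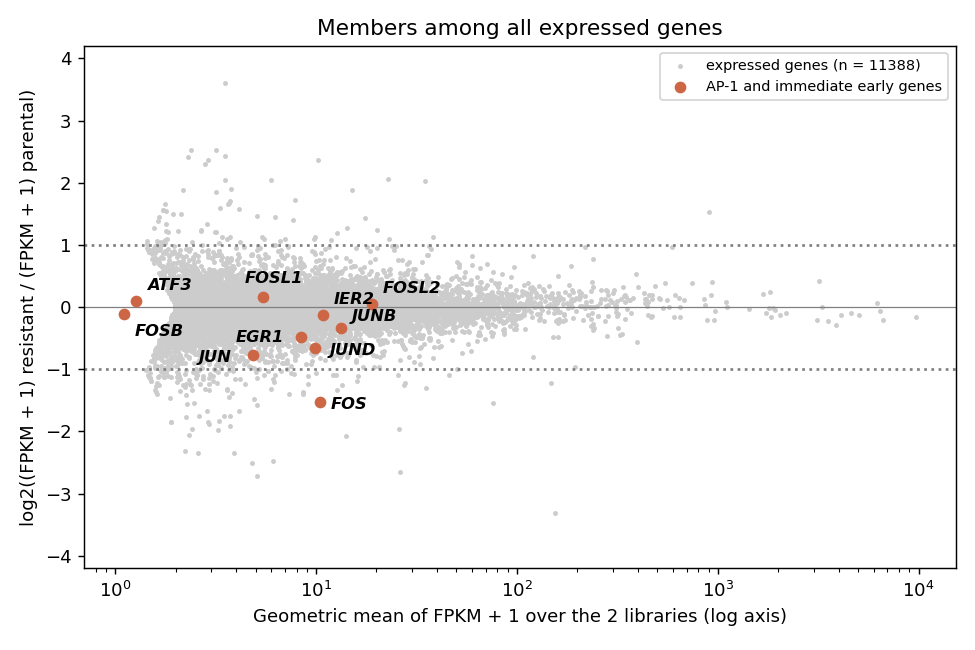
Log2 ratio of FPKM + 1 (resistant over parental) against the geometric mean of FPKM + 1 over both libraries, for 11388 expressed genes (grey) and the 10 AP-1 and immediate early genes (orange). FOS, at -1.53, is the only one of the 10 below the dotted line at -1.

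In the FOS family, the FOS gene (ENSG00000170345, chromosome 14 from 75278826 to 75282230, GRCh38), a rapidly induced and unstable partner of JUN, was at 16.7 FPKM in parental and 5.15 FPKM in resistant cells. These values rest on 3558 and 1117 counts. With a log2 ratio of -1.53 it was the 30th lowest of the 11388 expressed genes. Among the 5044 expressed genes of similar level (a geometric mean of FPKM + 1 within 2-fold of its own), 2 had a lower ratio. FOSL2 (chromosome 2 from 28392448 to 28417312), a FOS relative without the strong activation domain of FOS, was the most abundant of the 10 messages in both libraries, at 17.7 FPKM in parental and 18.3 FPKM in resistant cells (8440 and 8892 counts). Its fold was 1.04 (1.01 to 1.07), a difference that 2 libraries cannot place against culture-to-culture spread. FOSL1 (chromosome 11 from 65892049 to 65900419), which accumulates under sustained ERK signalling, was at 4.15 and 4.75 FPKM (523 and 610 counts), with a fold of 1.15 (1.02 to 1.29). FOSB (chromosome 19 from 45467995 to 45475179) was scarce, at 0.15 and 0.06 FPKM from 58 and 22 counts, 2.68-fold lower in resistant cells with a wide interval (1.61 to 4.59). The FOSB row overlaps ERCC1 on the opposite strand, which had 3502 and 3766 counts, and the strand setting of the counting is not given in the sources used here, so reads of the pair may not be told apart.

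All 3 JUN genes were lower in the resistant library, each by less than FOS. JUN (chromosome 1 from 58780791 to 58784047), the strongest activator of the JUN proteins, was at 5.35 FPKM in parental and 2.72 FPKM in resistant cells (1163 and 601 counts), 1.96-fold lower (1.78 to 2.17). JUND (chromosome 19 from 18279694 to 18281622), which is usually expressed without stimulation, was at 11.5 and 6.91 FPKM (1475 and 904 counts), 1.66-fold lower (1.52 to 1.80). JUNB (chromosome 19 from 12791486 to 12793315), a weaker activator that can restrain JUN, was at 13.98 and 10.9 FPKM (1706 and 1353 counts), 1.28-fold lower (1.19 to 1.38). Their log2 ratios on the FPKM + 1 scale were -0.77, -0.66 and -0.33. The counting intervals of JUN and JUND overlapped each other, and that of JUNB overlapped neither. Of the expressed genes at a similar level, 2.40% had a ratio below that of JUN, 2.33% below that of JUND and 8.41% below that of JUNB.

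**Figure D2:**
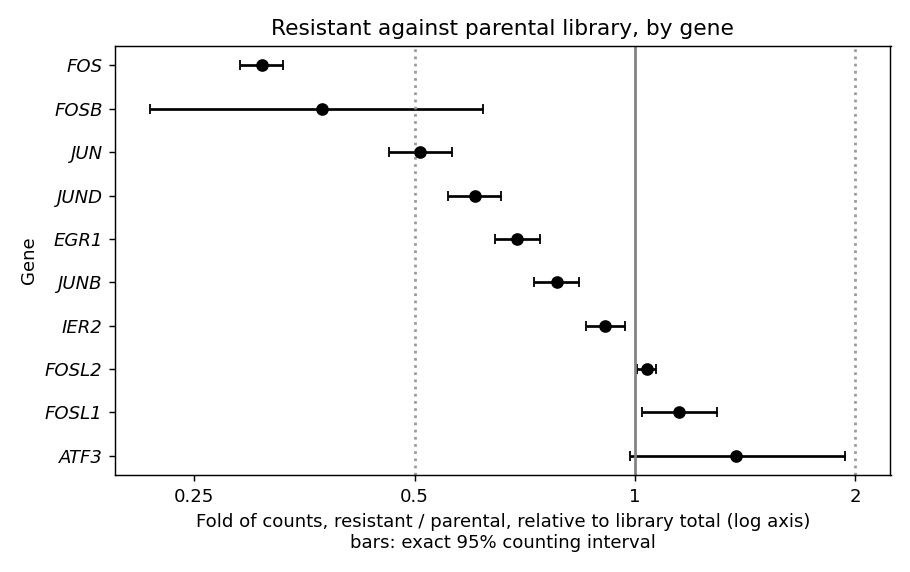
Count fold scaled to library totals (resistant over parental, log axis) for each of the 10 genes, with exact 95% counting intervals; dotted lines mark 0.5 and 2. FOS lies lowest at 0.309, FOSL2 and FOSL1 lie just above 1, and the intervals of FOSB and ATF3 are wide.

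The zinc finger factor EGR1 (chromosome 5 from 138465479 to 138469303) was at 8.93 FPKM in parental and 6.15 FPKM in resistant cells, from 1868 and 1310 counts. It was 1.45-fold lower (1.35 to 1.55), and its log2 ratio of -0.47 lay just outside the 1.5-fold rule that JUND met with -0.66. IER2 (chromosome 19 from 13150411 to 13154911) was at 10.3 and 9.35 FPKM (2114 and 1954 counts), 1.10-fold lower (1.03 to 1.17). ATF3 (chromosome 1 from 212565334 to 212620772), a stress-induced bZIP protein that represses as a homodimer, was at 0.23 and 0.32 FPKM from 63 and 88 counts. Its fold of 1.38 had an interval that held 1 (0.985 to 1.93), so a difference in ATF3 was not detectable at this depth.

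The order of the levels differed between the libraries. In parental cells FOSL2 and FOS led, and their counting intervals of 17.3 to 18.1 and 16.2 to 17.3 FPKM met at the edge. JUNB, JUND, IER2, EGR1, JUN, FOSL1, ATF3 and FOSB followed in that order, and among these only the last pair, ATF3 and FOSB, had overlapping intervals. In resistant cells FOSL2 was followed by JUNB, IER2, JUND and EGR1, and FOS came sixth, ahead of FOSL1, JUN, ATF3 and FOSB. There the intervals of FOS (4.85 to 5.46 FPKM) and FOSL1 (4.38 to 5.14 FPKM) overlapped, and those of JUND (6.47 to 7.38 FPKM) and EGR1 (5.82 to 6.49 FPKM) met at the edge, so neither order was resolved. No other neighbours in the resistant order overlapped.

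**Figure D3:**
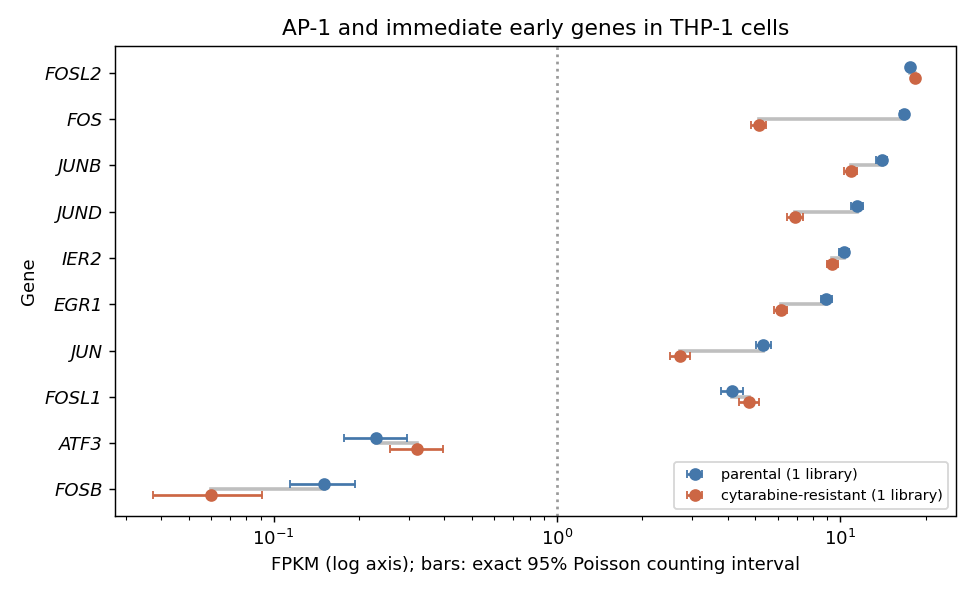
FPKM of the 10 genes in the parental (blue) and cytarabine-resistant (orange) library on a log axis, ordered by the parental level, with exact 95% Poisson counting intervals; the dotted line marks 1 FPKM. The longest grey bar among the expressed genes is that of FOS (16.7 to 5.15 FPKM).

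The make-up of each family's messages differed between the libraries. The FOS family summed to 38.7 FPKM in parental and 28.3 FPKM in resistant cells, a ratio of 0.730. FOS made up 43.2% of that sum in parental and 18.2% in resistant cells, while FOSL2 made up 45.6% and 64.8% and FOSL1 10.7% and 16.8%. FOSL2 and FOS messages thus stood at 1.06 to 1 in parental and 3.55 to 1 in resistant cells. The JUN family summed to 30.8 and 20.5 FPKM, a ratio of 0.666. Its make-up differed less: JUNB took 45.4% in parental and 53.1% in resistant cells, JUND 37.2% and 33.7%, and JUN 17.4% and 13.3%. The sum of the FOS family over that of the JUN family was 1.26 in parental and 1.38 in resistant cells. These are shares of messages per length, and protein was not measured.

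**Figure D4:**
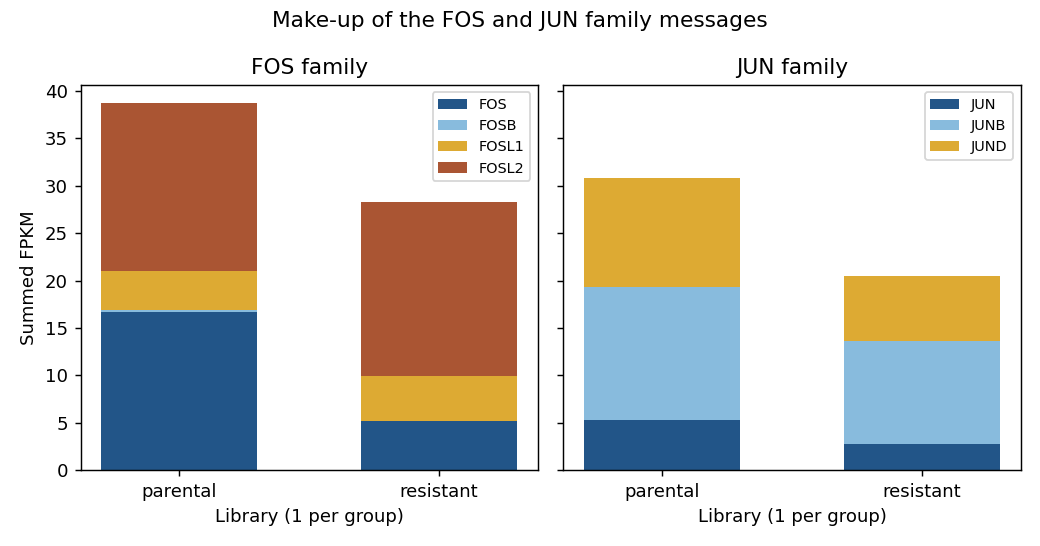
Summed FPKM of the FOS family (left) and JUN family (right) in each library, stacked by gene. The FOS segment shrinks from 16.7 to 5.15 FPKM while the FOSL2 segment stays at 17.7 and 18.3 FPKM.

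The members share features of gene structure that the choice by name did not use. In the GENCODE 29 annotation JUN, JUNB and JUND each have 1 exon, as do 1.69% of expressed protein-coding genes. EGR1 and IER2 have up to 2, FOS, FOSL1 and FOSL2 up to 4, and FOSB and ATF3 up to 5. The AU-rich heptamer TATTTAT, written as DNA and searched on the sense strand alone, marks many messages that are degraded quickly. It was in the 3′ UTR of 7 of the 10 members, against 31.5% of 10018 expressed genes, with 2 copies each in FOS and FOSL2, 1 each in FOSB, FOSL1, JUN, JUND and ATF3, and none in JUNB, EGR1 and IER2. The 3′ UTR that held these 2 copies was 806 bases long in FOS and 4864 bases long in FOSL2. Across all expressed genes, 1.04% of those with no copy, 1.47% of those with 1 copy and 0.798% of those with 2 or more were at least 2-fold lower in resistant cells. For the 169 genes with 1 exon this share was 3.55%, against 1.05% of those with several. None of JUN, JUNB and JUND was at least 2-fold lower on this scale. The shares at least 1.5-fold lower were 8.28% with 1 exon and 4.34% with several. The part of either feature in the ratios of the members was not tested.

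The genes around each member were compared with it to show whether it stood apart from its stretch of the chromosome. The 20 expressed genes nearest to FOS, 10 on each side, had a median log2 ratio of -0.06 and ranged from -0.79 to 0.29, so FOS at -1.53 lay below all of them. JUND at -0.66 also lay below its 20 neighbours, whose median was -0.03 and whose lowest value was -0.53. For JUN the median was -0.10, and 3 of its 20 neighbours had a lower ratio than JUN itself, the lowest being RAVER2 at -1.56. Around EGR1 the median was -0.02, and 2 of 20 were lower than EGR1, with MATR3 lowest at -0.53. The medians around IER2, FOSB, ATF3, FOSL1 and FOSL2 lay between -0.12 and -0.01, and 10 of 20 around IER2 were lower than IER2. For JUNB the median was -0.15, and 6 of 20 were lower than JUNB, with PRDX2 lowest at -2.08. PRDX2 lies 3505 bases from JUNB on the opposite strand, at 28.1 FPKM in parental and 5.88 FPKM in resistant cells. IER2 starts 65 bases from STX10 on the opposite strand, and STX10 was at 11.7 and 7.68 FPKM, a fold of 0.659 (0.606 to 0.716), against 0.911 (0.856 to 0.969) for IER2. FOSL1 has CCDC85B 414 bases away on the opposite strand, at 44.7 and 35.3 FPKM, a fold of 0.792 (0.7496 to 0.837), where FOSL1 was higher.

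The other genes of the pathway were described from lists of possible partners, regulators and targets. In these lists, genes were counted past a fold on the log2(FPKM + 1) scale, as above. Counts by the count fold, which has no added 1, are given where they differ. By the count fold, 8.36% of all expressed genes were at least 1.5-fold lower and 5.43% at least 1.5-fold higher. At 2-fold these shares were 3.56% lower and 2.11% higher. The list of bZIP genes, which can pair with AP-1 proteins or with each other, also holds CEBPZ, although CEBPZ is not a bZIP protein. Of its 30 expressed genes, CEBPZ included, 10 had a ratio below 0 and 20 above (53.3% and 46.3% of all expressed genes). Their median log2 ratio was 0.07. On the FPKM + 1 scale 0 were 2-fold apart, 0 were at least 1.5-fold lower and 2 at least 1.5-fold higher: ATF5, a stress-response factor, at 14 FPKM in parental and 24.6 FPKM in resistant cells, and NFE2, a factor of the megakaryocyte and erythroid lineages, at 1.13 and 2.35 FPKM. DBP, a clock-controlled factor, was at 1.07 and 0.45 FPKM. By the count fold, 1 gene was at least 1.5-fold lower and 3 at least 1.5-fold higher, and 2 of these were past 2-fold: DBP at 0.420 (0.354 to 0.497) and NFE2 at 2.06 (1.72 to 2.48).

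Among 32 further expressed immediate early and early response genes, 17 were below 0 and 14 above, with a median of -0.07. The one gene at least 2-fold lower was ID3, an inhibitor of helix-loop-helix factors, at 2.75 FPKM in parental and 0.76 FPKM in resistant cells (276 and 78 counts). KLF4 and KLF6, zinc finger factors, were also past 1.5-fold lower, at 6.09 against 3.12 FPKM and 4.33 against 2.49 FPKM. BHLHE40, a helix-loop-helix repressor, was at 3.29 in parental and 5.97 FPKM in resistant cells. It was the only expressed gene of this list at least 1.5-fold higher on the FPKM + 1 scale. By the count fold 5 expressed genes were at least 1.5-fold lower and 4 at least 1.5-fold higher, with ID3 again the 1 past 2-fold. The shares of all expressed genes past 1.5-fold on that scale were 8.36% lower and 5.43% higher. Other EGR genes were nearly silent, with 8 parental and 0 resistant counts for EGR2, and 7 and 26 counts for EGR3. The count of 0 does not show that the EGR2 message was absent, and the interval of its fold reached 0.577.

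Of 29 expressed genes that signal to the FOS and EGR1 promoters, 18 were below 0 and 11 above (median -0.05), and none was 2-fold apart. MEF2A, a MADS-box factor related to SRF, was at 5.69 in parental and 3.03 FPKM in resistant cells. MAPK3, the kinase ERK1, was at 7.10 and 4.16 FPKM. CREBBP, a coactivator of CREB, was at 7.05 and 4.95 FPKM. SRF, which binds the CArG box, was named after its value was seen and stood at 42.6 and 41.2 FPKM. The 18 expressed genes of the JNK and p38 kinase cascades that act on JUN and ATF2 were divided evenly (9 below 0 and 9 above, median 0.01). None of them was 1.5-fold apart, and the furthest from 0 were MAP3K5 (3.90 against 5.33 FPKM), GADD45B (4.07 against 5.40) and MAPK8IP3 (3.60 against 4.75), parental first.

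Of 21 feedback inhibitors and corepressors, 16 were expressed. These had a median of -0.11, with 12 of 16 below 0 and none 1.5-fold apart on the FPKM + 1 scale. By the count fold 2 of the 16 were at least 1.5-fold lower and 1 at least 1.5-fold higher, against 8.36% and 5.43% of all expressed genes. The listed genes below 1 FPKM were named after their values were seen. Their count folds were 0.211 for SPRED1, 0.415 for SPRY1, 0.491 for SPRY4, 0.501 for DUSP1 and 0.803 for DUSP16. The interval of DUSP16 held 1. The phosphatase DUSP10, which acts on JNK and p38, was at 6.84 in parental and 4.30 FPKM in resistant cells. The ERK phosphatase DUSP5 was at 1.63 and 2.72 FPKM, and the RAS pathway inhibitor SPRY2 at 10.4 and 7.13 FPKM. Genes for turnover of the messages and proteins had a median of -0.05 (17 of 22 below 0). Among the expressed genes of that list only AUH, an AU-binding protein, was past 1.5-fold, at 2.94 and 1.5 FPKM. The listed genes below 1 FPKM, ZFP36L1 and DET1, were named after their values were seen. ZFP36L1 was past 1.5-fold higher on the FPKM + 1 scale, at 0.13 FPKM in parental and 0.7 FPKM in resistant cells. It had 44 and 247 counts, a count fold of 5.53. The count fold of DET1 was 1.04, with an interval that held 1. CUL4A, a ubiquitin ligase scaffold, was at 24.9 and 31.7 FPKM and the mRNA decay factor ZFP36L2 at 101 and 86.3 FPKM.

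Genes described as targets of AP-1 or EGR1 lay on both sides of 0. Of 20 expressed targets, 7 were below 0 and 13 above, with a median of 0.08. VIM, an intermediate filament gene, was the 1 target at least 2-fold lower (129 FPKM in parental and 43.6 FPKM in resistant cells), a fold of 0.340 against 0.309 for FOS. At least 1.5-fold higher on the FPKM + 1 scale were MT2A, a metallothionein, at 15.9 and 32.6 FPKM, CXCL8, a neutrophil chemokine, at 0.51 and 1.48 FPKM, and VEGFA, an angiogenic growth factor, at 1.83 and 3.48 FPKM. By the count fold 5 were at least 1.5-fold higher, and MT2A (2.05) and CXCL8 (2.91) were past 2-fold. Of all expressed genes, 5.43% were at least 1.5-fold and 2.11% at least 2-fold higher on that scale.

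**Figure D5:**
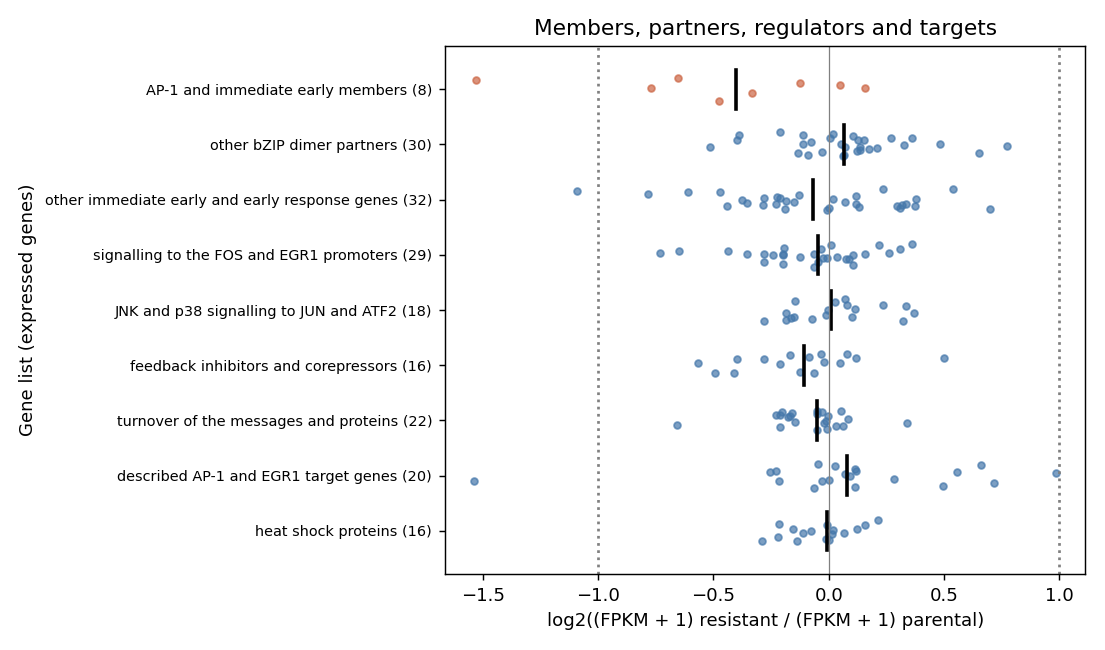
Log2 ratio of FPKM + 1 (resistant over parental) for each expressed gene of 9 lists, with the number of genes in parentheses; black bars are medians and vertical scatter is for display. The AP-1 and immediate early members (orange) have a median of -0.40, and the other medians lie between -0.11 and 0.08.

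Handling stress can raise immediate early genes together with heat shock genes. The 16 heat shock genes had a median of -0.01 (10 below 0, 6 above) and none was 1.5-fold apart. Those furthest from 0 were HSPB1, at 108 FPKM in parental and 88.3 FPKM in resistant cells, BAG3 at 12.03 and 10.2, and HSP90AB1 at 1035 and 891. How long each culture had been fed, or how it was handled before lysis, is not in the labels, and its part in the FOS and JUN values was not tested.

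The libraries held 57434972 (parental) and 58285463 (resistant) counts, and mitochondrial transcripts took 5.96% and 5.92% of them. Of 15 markers of THP-1 and monocytic leukaemia, 12 were expressed. SPI1, CD33, CD68, HOXA9 and LYZ were among them, whereas CD14 had 56 and 4 counts, MEIS1 had 0 and 4 and MLLT3 stayed below 1 FPKM. The summed level of this list was 443 FPKM in parental and 334 FPKM in resistant cells, with 9 of the 12 expressed markers below 0 and 3 above. The genes past 2-fold on the FPKM + 1 scale lay in opposite directions: LYZ, for lysozyme, was at 225 and 95.8 FPKM, and FCER1G, an Fc receptor chain, at 14.8 and 32.8 FPKM. MPO, for myeloperoxidase, was at 2.81 and 0.94 FPKM and was past 2-fold lower by the count fold alone (0.336). The part of these markers in the FOS and JUN values was not tested. Of the T and natural killer cell list, CD4, which monocytic cells also express, was at 22 and 28.3 FPKM and NKG7 at 11.3 and 10.5 FPKM, with CD2, CD8A and GNLY at 0 counts in both. No gene with a row from the B cell, erythroid and megakaryocyte, or epithelial and fibroblast lists reached 1 FPKM, and their summed levels were at most 1.25 FPKM in either library. Rows were present for 4 of 7, 2 of 9 (GP9 and ITGA2B) and 7 of 10 of these genes, in that order. The T and natural killer cell list had rows for 6 of 9. The other listed genes could not be read.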

How the data were processed

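Poly(A) RNA of 1 parental and 1 resistant library was analysed from the table of the whole series. The authors deposited a whole-number read count per gene and library and an FPKM value with 2 decimals, per the file headers. StringTie 1.3.4d, HISAT2 2.0.4, cutadapt 1.9, edgeR and DESeq2 are listed with GRCh38 per the submitters' processing notes. Their roles, the strand setting, the release of the annotation and the treatment of multi-mapped reads are not given in the sources used here. The resistant count column has an unexplained suffix; over 6057 genes with at least 5 FPKM in both libraries, its log2 ratios differed from those of the FPKM by a median of -0.004 (SD 0.0013).

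Rows named by a clone accession were left out (22882 remained), and genes with at least 1 FPKM in either library were called expressed. The size rule used the log2 ratio of FPKM + 1, resistant over parental; the added 1 shrinks ratios of low genes. Fold intervals come from the exact 95% Clopper-Pearson limits on the part of each gene's counts found in resistant cells. They treat reads as independent molecules, which is not known. Total counts of 57434972 and 58285463 set the precision. The design allowed for FPKM alone or with counts, and both were present.

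The members and lists were chosen with earlier results of these data known. The text names every member, the 3 genes furthest from 0 in each list, the genes past 2-fold where a list had 5 or fewer, and genes beside members; others are said to be named after their values were seen. Some genes past 1.5-fold are also named, CEBPZ is named for its protein class, and marker genes were named by list. For gene structure, 1 protein-coding transcript per gene was taken from GENCODE 29 (principal, then longest coding), and exon numbers are the most over its transcripts. The size rule and intervals were tested on simulated counts. Alternatives covered pseudocount, minimum level, scaling (with the TMM factor of edgeR 4.0.16), gene class and the number of neighbours. Scripts ran in Python 3.11.15 with scipy 1.17.1, pandas 2.3.3, numpy 2.4.6 and matplotlib 3.10.9.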

Additional observations from a re-analysis of the deposited data

How the results depend on the processing

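FOS was the only expressed member at least 2-fold lower under each of the 7 alternatives listed at the outset and by the count fold without a pseudocount, which was added after seeing the data, and 0 members were at least 2-fold or 1.5-fold higher in any. The number of members at least 1.5-fold lower was 3, and 1 with a pseudocount of 5 FPKM, which shrinks all ratios. The median log2 ratio of the members was -0.40, and -0.29 with that pseudocount and -0.23 with no minimum level, which adds FOSB and ATF3. Over the alternatives the log2 ratio ranged from -1.69 to -1.10 for FOS, -0.97 to -0.42 for JUN, -0.73 to -0.47 for JUND and -0.53 to -0.32 for EGR1, and from 0.04 to 0.08 for FOSL2. None of the 8 expressed members changed sign under these alternatives; FOSB and ATF3, below the minimum, were not recomputed with other pseudocounts or scalings. The share of all expressed genes at least 2-fold lower moved more, from 1.23% to 3.56% with no pseudocount, 3.21% with 0.1 FPKM and 0.14% with 5 FPKM. No paired analysis was possible because each group had 1 library. For the same reason no replicate could be left out, and the spread between cultures is unknown. Depth limits FOSB and ATF3, which had 22 to 88 counts in a library.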
